A study of Rattus norvegicus with 12 samples.

Results

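The 10 genes examined here were 5 proteoglycan core proteins (Bgn, Dcn, Lum, Vcan and Acan) and 5 genes followed when vascular smooth muscle cells (SMCs) take on bone-like or cartilage-like features (Spp1, Mgp, Alpl, Runx2 and Sox9). They were taken by name from a gene-level count table of 33294 genes, and all 10 had a row. The libraries came from PAC1, a cell line derived from rat pulmonary artery SMCs, as poly(A) RNA in 12 libraries of 4 groups with 3 replicates each. PAC1-D cells were passaged 1 time per week at a 1:10 dilution, and PAC1-P cells 2 times per week at 1:20. Both are cultures of the same line, and the study reports higher proliferation of PAC1-P than of PAC1-D cells. D1 was PAC1-D with control siRNA, P was PAC1-P with control siRNA, RBPMS KD1 was PAC1-D with siRNA against Rbpms, and MBNL KD was PAC1-D with siRNAs against both Mbnl1 and Mbnl2. Every group, controls included, received 90 pmol siRNA in 2 rounds 24 h apart and was harvested 48 h after the second round per the labels, while the study's methods give later times for both steps. RBPMS and the MBNL proteins are RNA-binding proteins that control alternative splicing. The study's methods state at least 3 independent biological replicates without tying the libraries to cultures, so p-values measure the spread between these samples.

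Proteoglycans are core proteins that carry glycosaminoglycan chains. The small leucine-rich members, biglycan, decorin and lumican, bind collagen fibrils, while versican and aggrecan are large chondroitin sulfate proteoglycans that bind hyaluronan; versican is a usual component of the artery wall and aggrecan of cartilage. In calcifying arteries SMCs can acquire RUNX2 and SOX9, the transcription factors of bone and cartilage lineages. Osteopontin (Spp1) and matrix Gla protein (Mgp) are secreted proteins that bind or inhibit mineral, and the alkaline phosphatase encoded by Alpl degrades pyrophosphate, itself an inhibitor of mineral deposition.

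Depth was 80842635 to 90771289 counts per library, and the 10 genes together held 0.44% (P) to 0.67% (RBPMS KD1) of the counts. Values are given as scaled counts, the deposited counts divided by the library's TMM scale. Libraries within a group differed by more than sampling noise in every pair, with a chi-square per gene of 3.82 to 14.0, and replicate 3 of MBNL KD was both the shallowest and the farthest from its replicates. Rbpms was at 25.0% of its D1 mean in RBPMS KD1, and Mbnl1 and Mbnl2 were at 23.7% and 29.5% in MBNL KD. The summed level of 8 SMC markers was 871700 to 916200 in D1, 18690 to 19860 in P, 434100 to 449800 in RBPMS KD1 and 694100 to 704500 in MBNL KD. Outside P, most of it was Acta2 and Tagln. In MBNL KD 6 of the 8 were lower and 2 higher, Myh11 and Cnn1, on the adjusted p alone. In bulk RNA, fewer cells of a type and less RNA per cell cannot be told apart.

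Cell type markers bear on how the labels of bone and cartilage apply. Of 5 chondrocyte markers, Col9a1 was at 0 in D1 and P, and Matn1 at 0 in D1. Their summed level was 42.9 to 65.0 scaled counts in D1, 95.8 to 140 in P, 59.65 to 84.2 in RBPMS KD1 and 33.8 to 53.7 in MBNL KD. Col2a1, the main cartilage collagen, had 0 to 12 counts per library. Of 5 osteoblast markers, Ibsp was at 0 in D1 and MBNL KD, Sp7 had at most 8 counts, Bglap at most 20, and the sum of 1146000 to 1885000 was made almost wholly by Col1a1, which mesenchymal cells in general express. Apart from Col10a1 (25 to 144 counts) and Col1a1, these chondrocyte and osteoblast markers were thus at or near 0 in every group. This does not hold for all genes of cartilage or bone: among those reported below, Acan, Hapln1 and Matn4 were well above 0 in P, and Comp in every group. The 6 endothelial markers summed to 67.1 to 72.5 in D1, 487 to 605 in P, 162 to 165 in RBPMS KD1 and 82.9 to 127 in MBNL KD, with Cdh5 and Kdr at 0 outside P. Of them Cdh5, Vwf and Tek were called higher than D1 in P, and Vwf and Tek in RBPMS KD1 (2.33-fold and 2.50-fold). The 6 macrophage markers summed to 77.6 to 98.1 in D1, 82.9 to 136 in P, 86.1 to 119 in RBPMS KD1 and 127 to 136 in MBNL KD, with Ptprc and Itgam at 0 in D1 and Itgam at 0 in both knockdowns. Csf1r, the receptor of the macrophage growth factor CSF1, was called higher in MBNL KD, at 58.0 ± 5.48 against 23.6 ± 3.56 in D1 (SD, n = 3, edgeR BH-adjusted p = 0.00024), while Cd68, the other macrophage marker tested, did not pass (adjusted p = 0.9). The part of these markers in the results was not tested.

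Differences were tested with edgeR's quasi-likelihood test and Benjamini-Hochberg (BH) adjustment over all genes tested, and a gene was called at an adjusted p below 0.05 with a change of more than 2-fold. All 3 comparisons with D1 use the same D1 libraries. Alpl did not pass the filter on low counts in any comparison, which left 9 genes.

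P differed from D1 most. Acan, Sox9 and Runx2 rose and Mgp and Spp1 fell past 2-fold, so 3 of the 9 tested genes were called higher and 2 lower, against 16.4% and 11.2% of 16814 genes. On the adjusted p alone 6 were higher and 3 lower, against 40.4% and 37.6% of all genes. The genes therefore did not move one way: the proteoglycans Dcn, Lum and Vcan were modestly higher, Bgn was lower, and the extreme changes were those of Acan and Mgp in opposite directions. The median log2 fold change of the 9 genes was 0.39, beside 0.020 over all genes.

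In RBPMS KD1, 0 of the 9 genes were called under edgeR with the 2-fold threshold, where 3.06% of 15904 genes were called higher and 1.62% lower. On the adjusted p alone 5 were higher (Bgn, Dcn, Spp1, Mgp and Runx2) and 2 lower (Lum and Vcan), against 29.5% and 29.5% of all genes. Acan and Sox9 did not pass. At an unadjusted p under 0.05 the same count of 7 was reached, and DESeq2 and limma also called 0 past 2-fold. In MBNL KD, Runx2 was called higher and Dcn lower, 1 gene each, against 6.1% and 4.14% of 16053 genes. On the adjusted p alone 5 were higher (Vcan, Acan, Spp1, Runx2 and Sox9) and 3 lower (Dcn, Lum and Mgp), against 33.8% and 33.7%, and Bgn did not pass. The median log2 fold change of the 9 genes was 0.22 in RBPMS KD1 (0.0043 over all genes) and 0.25 in MBNL KD (0.0099 over all genes).

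The knockdowns were also compared directly, without D1. Acan and Runx2 were called higher and Dcn and Mgp lower in MBNL KD than in RBPMS KD1, 2 genes in each direction, against 5.88% and 6.03% of 16111 genes. On the adjusted p alone 5 were higher and 4 lower, against 35.1% and 34.5%. Thus Dcn and Mgp stood on opposite sides of D1 in the 2 knockdowns, above it in RBPMS KD1 and below it in MBNL KD. The plots of counts by library and of fold changes show these patterns gene by gene.

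**Figure D1:**
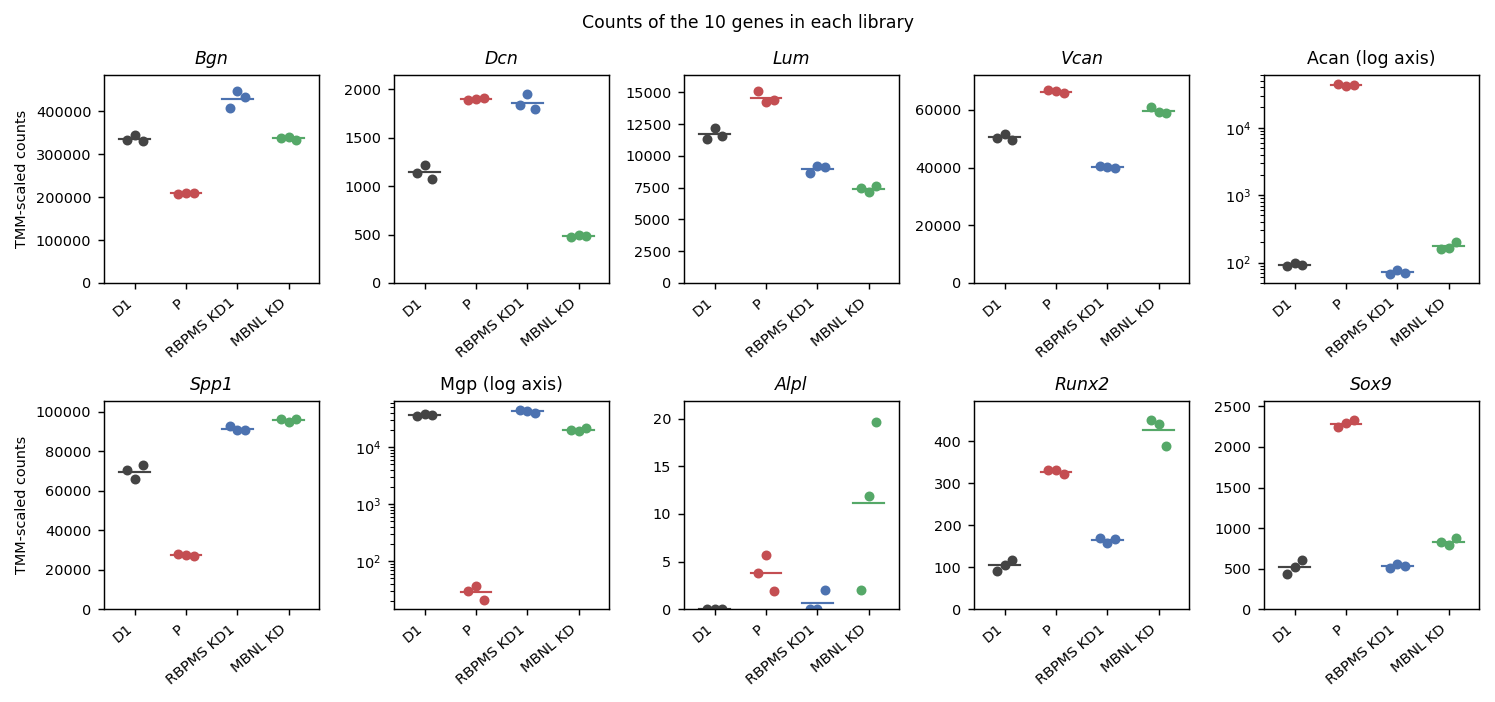
TMM-scaled counts of the 10 genes in each of the 12 libraries (points, 3 per group) with the group mean (line). Axes start at 0 except for Acan and Mgp, which are on a log axis. Acan lay at 42109 to 44615 in P and at most 201 elsewhere, and Mgp at 20.9 to 36.0 in P and at least 19183 elsewhere.

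**Figure D2:**
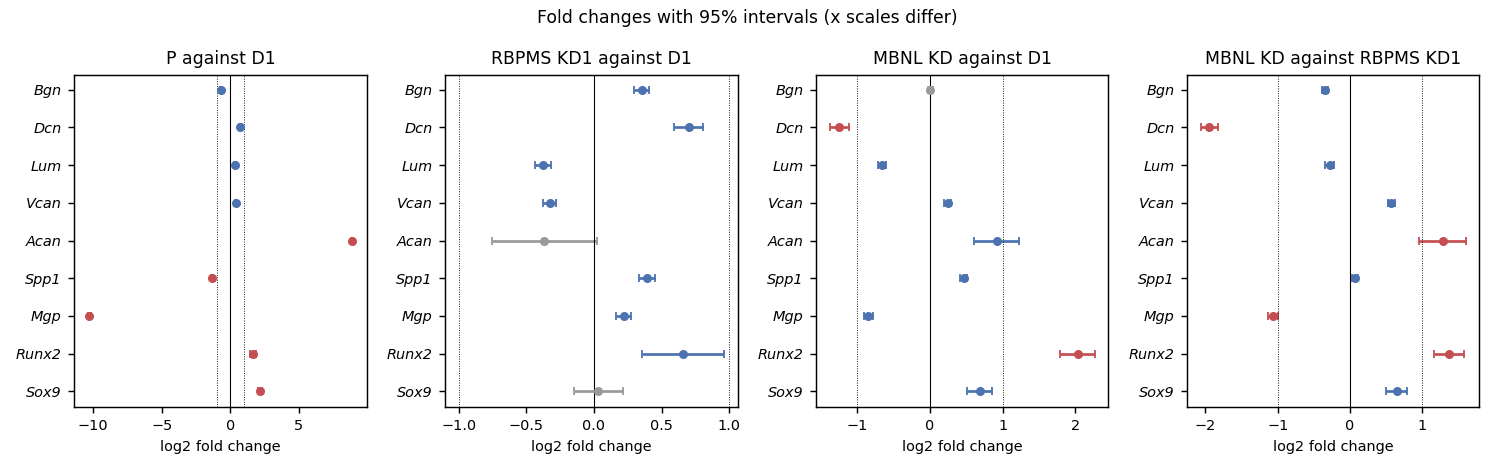
Log2 fold change of the 9 tested genes with its 95% interval, from the edgeR standard error, in 4 comparisons with different x scales. Red points were called, blue points passed on the adjusted p alone, grey points did not pass, and dotted lines mark a 2-fold change. Dcn and Runx2 were called in MBNL KD against D1, at -1.24 and 2.03.

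Biglycan was the small leucine-rich proteoglycan with the most counts. Bgn had 332310, 344460 and 329950 scaled counts in the D1 libraries and 206080, 208950 and 210050 in P. It had 407740, 445630 and 432710 in RBPMS KD1 and 336470, 338610 and 333620 in MBNL KD. The P libraries were all below and the RBPMS KD1 libraries all above the others, while D1 and MBNL KD overlapped. Bgn was 1.61-fold lower in P (log2 fold change -0.69, SE 0.023, edgeR BH-adjusted p = 2.2e-23) and 1.28-fold higher in RBPMS KD1 (0.35, SE 0.028, adjusted p = 1e-11). The size of these changes depended on the scaling, since quantile normalization gave -0.11 for P and 0.19 for RBPMS KD1. Between MBNL KD and D1 the difference was 0.0095 with a 95% interval from -0.026 to 0.045 (adjusted p = 0.67), and its sign flipped with limma on the authors' normalised values (-0.073).

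Decorin, which regulates collagen fibril assembly and binds TGF-beta, took opposite directions in the 2 knockdowns. Dcn had 1139, 1222 and 1077 scaled counts in D1, and 1885, 1895 and 1914 in P. In RBPMS KD1 it had 1834, 1956 and 1796, overlapping P, and in MBNL KD 476, 491 and 481. All 6 libraries of P and RBPMS KD1 were above D1, and all 3 of MBNL KD below it. The rise was 1.66-fold in P (log2 0.73, SE 0.052, edgeR BH-adjusted p = 2.1e-14) and 1.62-fold in RBPMS KD1 (log2 0.70, SE 0.055, adjusted p = 5.9e-12). The fall in MBNL KD was 2.37-fold (log2 -1.24, SE 0.068, adjusted p = 5.3e-16), and MBNL KD was 3.86-fold lower than RBPMS KD1 (log2 -1.95, SE 0.062, adjusted p = 3.6e-22).

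Lumican, a keratan sulfate proteoglycan of collagen-rich matrix, fell in both knockdowns. Lum had 11330, 12171 and 11575 scaled counts in D1, 15072, 14263 and 14391 in P, 8642, 9206 and 9100 in RBPMS KD1, and 7436, 7122 and 7656 in MBNL KD. The 4 groups did not overlap, with P highest and MBNL KD lowest. Relative to D1 the log2 fold change was 0.32 (SE 0.028) in P, -0.38 (SE 0.031) in RBPMS KD1 and -0.65 (SE 0.029) in MBNL KD, with edgeR BH-adjusted p of 6e-12, 1.3e-11 and 2.4e-18, none past 2-fold. MBNL KD was below RBPMS KD1 by -0.28 on the log2 scale (adjusted p = 2.7e-09), and by -0.16 under quantile normalization.

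Versican, the large hyaluronan-binding proteoglycan of the artery wall, moved in opposite directions in the 2 knockdowns. Vcan had 50163, 51471 and 49686 scaled counts in D1, 66779, 66401 and 65665 in P, 40413, 40076 and 39979 in RBPMS KD1, and 61107, 59118 and 58887 in MBNL KD. No groups overlapped, and the order from the highest was P, MBNL KD, D1 and RBPMS KD1. The log2 fold change from D1 was 0.39 in P (SE 0.023), -0.33 in RBPMS KD1 (SE 0.024) and 0.25 in MBNL KD (SE 0.025), with edgeR BH-adjusted p of 1.5e-16, 1.8e-12 and 3.3e-10. Under quantile normalization the changes in P and MBNL KD were 0.69 and 0.40. MBNL KD was 1.49-fold above RBPMS KD1 (log2 0.57, SE 0.025, adjusted p = 1.4e-18). The counts sum all splice forms of a gene, so they do not separate versican isoforms.

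Aggrecan, the main proteoglycan of cartilage, had the largest rise among the 10 genes. Acan had 89.9, 97.0 and 91.9 scaled counts in D1 and 44615, 42109 and 43270 in P, a mean of 92.9 ± 3.68 against 43331 ± 1254 (SD, n = 3). The P level was thus 466-fold that of D1 (log2 8.86, SE 0.046, edgeR BH-adjusted p = 4.7e-46). Both knockdowns stayed far below P. RBPMS KD1 had 68.7, 77.0 and 70.2, and MBNL KD had 158, 167 and 201. In MBNL KD Acan was 1.89-fold above D1 (log2 0.92, SE 0.16, adjusted p = 7.3e-06), and 2.44-fold above RBPMS KD1 (log2 1.28, SE 0.17, adjusted p = 6e-08). The first value was 0.58 and the second 0.94, below 2-fold, with limma on the authors' normalised values. In RBPMS KD1 all 3 libraries were below those of D1, but the change of -0.37 did not pass (95% interval -0.75 to 0.020, adjusted p = 0.11), whereas it passed under quantile normalization (-0.50), limma (-0.35) and a single fit of all 12 libraries (-0.37). The start-site window of Acan (250 bases before to 50 after the start, RefSeq, GRCr8, chr1:142390701-142391000, plus strand) is shown because this gene went from about 0.0001% to 0.0525% of the library. It has a GC content of 73.0% and holds none of the motifs searched below.

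Acan: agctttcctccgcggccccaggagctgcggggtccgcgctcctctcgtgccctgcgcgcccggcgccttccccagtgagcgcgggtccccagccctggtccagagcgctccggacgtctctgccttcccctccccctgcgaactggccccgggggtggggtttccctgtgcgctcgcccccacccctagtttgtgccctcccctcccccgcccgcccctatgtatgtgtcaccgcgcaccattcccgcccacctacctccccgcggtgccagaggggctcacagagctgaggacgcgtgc

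Osteopontin, a secreted integrin ligand often raised in synthetic SMCs and in mineralizing tissue, was lowest in P. Spp1 had 70322, 65753 and 72948 scaled counts in D1 and 28231, 27604 and 27137 in P. It had 92612, 90663 and 90784 in RBPMS KD1 and 96157, 94673 and 96154 in MBNL KD, both above every D1 library. The level was 2.52-fold lower in P (log2 -1.33, SE 0.029, edgeR BH-adjusted p = 4e-29), 1.31-fold higher in RBPMS KD1 (log2 0.39, SE 0.029, adjusted p = 1.7e-12) and 1.37-fold higher in MBNL KD (log2 0.46, SE 0.028, adjusted p = 3.4e-15). The knockdowns differed from each other by 1.05-fold (log2 0.067, 95% interval 0.022 to 0.11, adjusted p = 0.011). This small difference no longer passed without RBPMS KD1 replicate 2 (0.045) or 3 (0.048), or without MBNL KD replicate 1 (0.053), 2 (0.062) or 3 (0.055), and was 0.20 under quantile normalization.

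Matrix Gla protein, a vitamin K-dependent inhibitor of calcification in arteries and cartilage, had the largest fall. Mgp had 35494, 37853 and 36412 scaled counts in D1 and 30.1, 36.0 and 20.9 in P, where 0.079% of the D1 level remained. This is a 1262-fold lower level (log2 -10.30, SE 0.059, edgeR BH-adjusted p = 5.4e-45), and the P libraries still held 22 to 38 counts each. The knockdowns lay on either side of D1. RBPMS KD1 had 44095, 43234 and 40354, 1.16-fold above D1 (log2 0.22, SE 0.030, adjusted p = 2.5e-07). MBNL KD had 20119, 19183 and 21533, 1.80-fold below D1 (log2 -0.84, SE 0.032, adjusted p = 8.4e-20). The direct difference was 2.10-fold (log2 -1.07, SE 0.035, adjusted p = 1.1e-21), just past the 2-fold threshold, and -0.97 under quantile normalization, just inside it.

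Alkaline phosphatase, whose activity is a standard test of osteogenic cells, was barely detected in these libraries. Alpl had 0 counts in each D1 library, which allows up to 3 counts per library. It had 4, 6 and 2 counts in P, 0, 0 and 2 in RBPMS KD1, and 2, 12 and 18 in MBNL KD. The MBNL KD libraries were the highest on average but overlapped P and RBPMS KD1. Alpl did not pass the filter on low counts. Tested without that filter, it was called higher than D1 in P (edgeR BH-adjusted p = 0.027, DESeq2 0.039) and in MBNL KD (8.4e-05 and 0.00032), and higher in MBNL KD than in RBPMS KD1 (0.0016 and 0.0087), on counts of 0 to 18. RBPMS KD1 against D1 did not pass (edgeR adjusted p = 0.43). All Alpl counts were even, and each fragment may have been counted 2 times, so these calls may rest on fewer fragments. They were not repeated on halved counts. The floor of 3 counts covers counting error only, and the fold of so low a gene is not given.

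RUNX2, the factor that commits cells to bone, was raised in all 3 groups relative to D1. Runx2 had 91.9, 104 and 118 scaled counts in D1, 331, 331 and 321 in P, 170, 158 and 168 in RBPMS KD1, and 450, 441 and 389 in MBNL KD. The 4 groups did not overlap, and MBNL KD was highest. The rise was 3.12-fold in P (log2 1.64, SE 0.13, edgeR BH-adjusted p = 2.5e-13), 1.58-fold in RBPMS KD1 (log2 0.66, SE 0.16, adjusted p = 0.00058) and 4.07-fold in MBNL KD (log2 2.03, SE 0.12, adjusted p = 4.1e-15). The value in P was 1.00 with limma on the authors' normalised values. MBNL KD exceeded RBPMS KD1 by 2.58-fold (log2 1.37, SE 0.11, adjusted p = 1.3e-12). Runx2 stayed a low-count gene throughout, with 90 to 453 counts per library.

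SOX9, the factor of cartilage identity that activates the aggrecan gene in chondrocytes, rose in P and in MBNL KD. Sox9 had 437, 518 and 606 scaled counts in D1, the widest relative spread of its groups with a coefficient of variation of 16.2%. It had 2244, 2292 and 2329 in P, 503, 554 and 539 in RBPMS KD1, and 827, 798 and 874 in MBNL KD. P stood above all other libraries, MBNL KD above D1, and RBPMS KD1 fell inside the D1 range. The rise was 4.40-fold in P (log2 2.13, SE 0.069, edgeR BH-adjusted p = 4.4e-24) and 1.60-fold in MBNL KD (log2 0.68, SE 0.086, adjusted p = 3.4e-08), and MBNL KD was 1.56-fold above RBPMS KD1 (log2 0.65, SE 0.072, adjusted p = 3.4e-09). In RBPMS KD1 the change was 0.034 with a 95% interval from -0.15 to 0.21 (adjusted p = 0.78), and its sign flipped under quantile normalization (-0.0074) and without D1 replicate 1 (-0.080). P had 247-fold as many Acan counts as MBNL KD, and its Sox9 level was 2.75-fold that of MBNL KD. Any link between the 2 genes was not tested.

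RefSeq start-site windows of 300 bases on GRCr8 were at hand for 6 of the 10 genes, in 8 windows (Acan, Alpl, Lum, Spp1, and 2 each for Runx2 and Vcan). They were searched on both strands for the letters ACCACA, a core of RUNX binding sites, and AACAAT, a core of SOX binding sites, and for the CArG box of serum response factor, motifs chosen with the sequences and results known. The upstream Runx2 window (chr9:23664808-23665107, plus strand) is shown because it holds 3 RUNX cores, at -76, +28 and +36 from the start site. The Spp1 window (chr14:5619755-5620054, minus strand) holds 1 SOX core at -178, on the other strand. Capitals mark the motifs.

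Runx2: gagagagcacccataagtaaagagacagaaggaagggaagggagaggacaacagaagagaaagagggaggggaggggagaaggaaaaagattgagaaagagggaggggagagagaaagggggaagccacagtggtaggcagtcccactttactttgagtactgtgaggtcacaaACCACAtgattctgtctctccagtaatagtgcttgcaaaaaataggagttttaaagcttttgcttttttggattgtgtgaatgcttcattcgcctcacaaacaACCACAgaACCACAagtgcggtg
Spp1: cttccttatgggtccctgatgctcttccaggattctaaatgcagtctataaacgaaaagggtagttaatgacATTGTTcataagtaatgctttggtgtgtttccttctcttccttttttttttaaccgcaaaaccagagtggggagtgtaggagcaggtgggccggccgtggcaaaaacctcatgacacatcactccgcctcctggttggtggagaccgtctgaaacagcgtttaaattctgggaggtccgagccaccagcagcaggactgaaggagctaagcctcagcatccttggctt

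At least 1 RUNX core was found in 17.3% of all 33469 windows and 3 or more in 0.209%, a SOX core in 11.7% and a CArG box in 1.64%. Lum had 1 RUNX core at -176, and the 8 windows held no CArG box. The second Runx2 window, both Vcan windows and that of Alpl held none of these letters. The gene counts do not tell which Runx2 start site was used, and a match of letters is a description, not a binding site.

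The wider pathway was described with 4 lists of 103 other genes, of which 77 could be tested in P against D1. Of these 16 were called higher and 23 lower in P, against the background shares of 16.4% and 11.2% given above. By comparison, 74 were tested in each knockdown, with 3 higher and 0 lower in RBPMS KD1 under edgeR, and 7 higher and 6 lower in MBNL KD. The shares over all genes were 3.06% and 1.62% in RBPMS KD1, and 6.1% and 4.14% in MBNL KD. At an unadjusted p under 0.05, 40 list genes were higher and 18 lower in RBPMS KD1. On the adjusted p alone 38 were higher and 16 lower, against 29.5% and 29.5% of all genes. Past 2-fold, DESeq2 called 3 higher and 0 lower, and limma 2 higher and 0 lower. The strip plot of list genes shows the spread. Across the lists the median log2 fold change was -0.29 in P, 0.16 in RBPMS KD1 and 0.072 in MBNL KD. Genes near 0 in D1 entered the test through their P libraries alone.

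**Figure D3:**
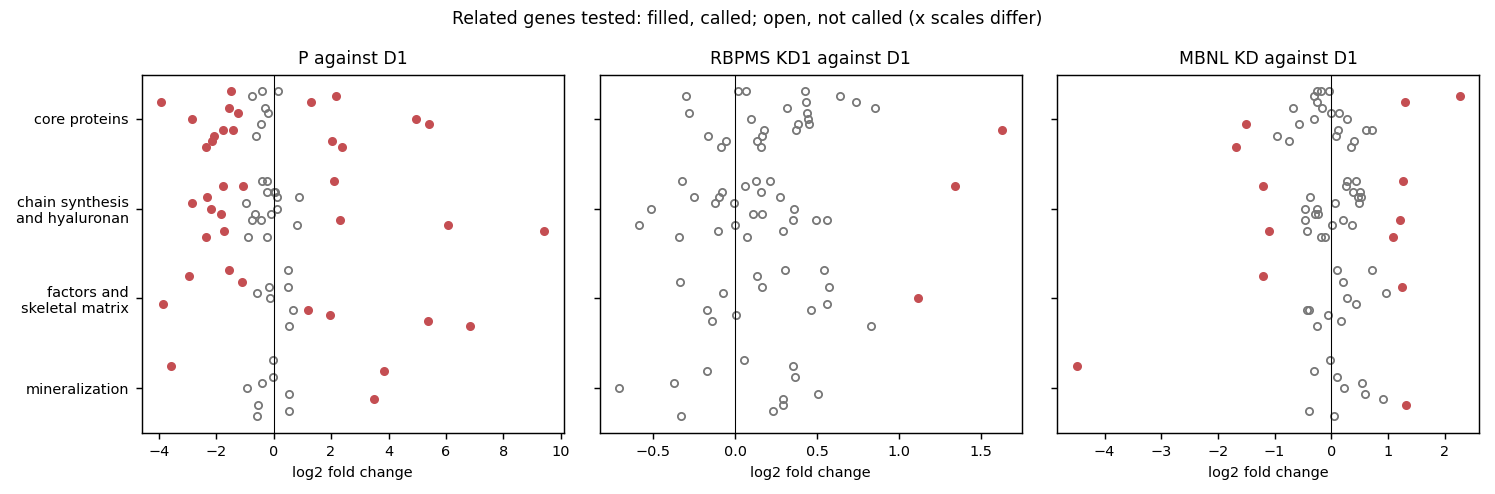
Log2 fold change of each list gene tested (one point per gene, vertical scatter only for legibility) in 3 comparisons with D1, by list, with different x scales. Filled red points were called and open points were not. In P 39 of 77 genes were called, in RBPMS KD1 3 of 74 and in MBNL KD 13 of 74.

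Among other proteoglycan core proteins 6 of 23 were called higher and 10 lower in P, beside 16.4% and 11.2% of all genes. Esm1 (endocan) rose from 56.7 ± 12.1 to 2414 ± 196 scaled counts (SD, n = 3 in all groups), Gpc3, a glypican, from 11.6 ± 4.68 to 367 ± 28.4, and Prelp, a leucine-rich repeat protein, from 182 ± 42.2 to 942 ± 43.4. Fmod (fibromodulin, a collagen-binding relative of lumican) fell from 46326 ± 2169 to 3051 ± 99.7, Sdc3, a syndecan, from 38090 ± 1040 to 5288 ± 19.8, and Epyc (epiphycan) from 63798 ± 770 to 12367 ± 422. The last 3 remained abundant in P. In RBPMS KD1 1 of 24 was called, near the shares of 3.06% higher and 1.62% lower over all genes: Aspn (asporin), rising from 3632 ± 64.3 to 11227 ± 256 (log2 1.63, edgeR BH-adjusted p = 1.6e-25). In MBNL KD 2 of 24 were higher and 2 lower, close to the shares of 6.1% and 4.14% over all genes, with Podn (podocan) at 1387 ± 32.6 against 4455 ± 212 and Epyc at 22485 ± 891, while Esm1 reached 140 ± 13.9. Between the knockdowns 1 of 24 was called higher and 4 lower in MBNL KD, beside 5.88% and 6.03% of all genes. The 4 lower were Epyc (log2 -1.95), Podn (-1.60), Sdc4, a syndecan (-1.13), and Omd, osteomodulin (-1.03).

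Genes for chondroitin and dermatan sulfate chain synthesis and for hyaluronan gave 4 higher and 8 lower of 28 in P, beside 16.4% and 11.2% of all genes. Hapln1, the link protein that fixes aggrecan to hyaluronan, had 0 to 2 counts in the D1 libraries and 565 to 608 in P, at least 185-fold higher when D1 is set at the floor of 3 counts per library. Chst15, a chondroitin sulfotransferase, had 2 to 4 counts in D1 and 180 to 238 in P. Most called enzymes went the other way. Chst3 (chondroitin 6-sulfation) fell from 3890 ± 78.5 to 548 ± 18.0, Ust (uronyl 2-sulfation) from 3408 ± 171 to 666 ± 21.2, Csgalnact1, which starts the chondroitin chain, from 5812 ± 102 to 1177 ± 82.2, and Chst12 (chondroitin 4-sulfation) from 3439 ± 44.7 to 756 ± 48.6. In RBPMS KD1 1 of 25 was called, near the same all-gene shares of 3.06% and 1.62%, namely Chst14, the dermatan 4-sulfotransferase (1652 ± 31.3 to 4190 ± 88.4, log2 1.34, edgeR BH-adjusted p = 2.1e-21). In MBNL KD 3 were higher and 2 lower of 26, beside 6.1% and 4.14% of all genes, among them Ust (7833 ± 59.6, log2 1.21), Cd44, the hyaluronan receptor (15272 ± 771 to 32380 ± 516, log2 1.09), Chst11 (chondroitin 4-sulfation, log2 -1.09) and Has1, a hyaluronan synthase (log2 -1.20). Between the knockdowns 3 of 25 were called higher and 2 lower in MBNL KD, beside 5.88% and 6.03% of all genes. Among them Ust and Cd44 were higher in MBNL KD than in RBPMS KD1 (log2 1.07 and 1.02), and Has1 and Chst14 lower (log2 -1.57 and -1.10).

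Osteochondrogenic factors and skeletal matrix genes gave 4 higher and 4 lower of 15 tested in P, beside 16.4% and 11.2% of all genes. Runx1, a relative of Runx2, rose from 1179 ± 106 to 4604 ± 69.3, Matn4 (matrilin 4) from 8.20 ± 2.04 to 343 ± 29.4, and Col10a1, a collagen of hypertrophic cartilage, from 46.8 ± 6.48 to 106 ± 25.5. Sox5, a partner of SOX9 in cartilage, fell from 1521 ± 44.6 to 514 ± 16.6, Matn2 (matrilin 2) from 6009 ± 380 to 421 ± 35.8, and Phex, an endopeptidase of bone cells, from 438 ± 16.7 to 57.3 ± 10.3. Thus Sox9 and Sox5 moved in opposite directions. In RBPMS KD1 1 of 14 was called, beside 3.06% and 1.62% of all genes, namely Phex (950 ± 40.8, log2 1.12, edgeR BH-adjusted p = 5.6e-14), and no gene of the list with limma on the authors' normalised values. In MBNL KD Comp (cartilage oligomeric matrix protein) rose from 332 ± 11.1 to 790 ± 47.2 (log2 1.26, adjusted p = 1.3e-14).

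Of the mineralization genes 2 of 11 were called higher and 1 lower in P, close to the shares of 16.4% and 11.2% over all genes. Phospho1, a phosphatase of matrix vesicles, rose from 241 ± 10.7 to 3438 ± 68.1 and Enpp1, which makes the inhibitor pyrophosphate, from 1053 ± 10.4 to 11784 ± 70.0. Smpd3, a neutral sphingomyelinase needed for skeletal mineralization, had 13542 ± 252 in D1, 1135 ± 26.3 in P, 17252 ± 281 in RBPMS KD1 and 596 ± 51.7 in MBNL KD. The fall of Smpd3 in MBNL KD was 22.7-fold (log2 -4.50, SE 0.040, edgeR BH-adjusted p = 1e-34), larger than that of any of the 10 genes in this comparison. Tnfrsf11b (osteoprotegerin, a decoy receptor that limits bone resorption) rose in MBNL KD from 1623 ± 139 to 4046 ± 92.5 (log2 1.32, adjusted p = 8.2e-21). In RBPMS KD1, 0 of 11 were called with the 2-fold threshold under edgeR (3.06% higher and 1.62% lower of all genes), 9 passed on the adjusted p alone (29.5% and 29.5% of all genes) as well as at an unadjusted p under 0.05, and DESeq2 and limma called 0.

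Position on the chromosome was a feature the choice of genes did not use. The protein-coding neighbours up to 6 places on either side were taken from the RefSeq gene order (GRCr8), and the 4 genes plotted were picked after the values were seen. Lum lies next to Dcn, with Kera and Epyc beyond it. In MBNL KD Dcn, Lum and Epyc were all below D1, whereas Btg1, on the other side of Dcn, had 60560 to 60740 scaled counts against 37960 to 39150. Kera had at most 2 counts per library. In RBPMS KD1 Dcn and Epyc were above D1 and Lum below it, and in P Dcn and Lum were above and Epyc below.

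The nearest neighbours of Mgp with counts, Art4 on one side and Erp27 and Arhgdib on the other, were low-count genes that had 0 counts in P. They had 20.4 to 36.1, 6.19 to 16.4 and 14.3 to 20.6 scaled counts in the D1 libraries. In MBNL KD, where Mgp was below D1, they had 81.0 to 105, 17.9 to 33.6 and 22.9 to 29.6, and in RBPMS KD1 35.1 to 60.7, 15.04 to 29.3 and 24.3 to 36.4. Rerg, 4 places away, was at 2047 to 2214 in D1 and 492 to 609 in P, whereas Wbp11 on the other side, at 6405 to 6743 and 5638 to 5836, and Eps8, at 4820 to 5350 and 3809 to 3944, stayed abundant. Hapln1 and Edil3 lie next to Vcan, and Edil3 had 0 counts in D1 and 460 to 482 scaled counts in P. Around Spp1, the skeletal genes Mepe, Ibsp and Dmp1 on one side had at most 12 counts per library in every group. Pkd2 on the other side had 27750 to 29470 scaled counts in D1, 10350 to 10550 in P, 33140 to 34520 in RBPMS KD1 and 34600 to 36010 in MBNL KD, the same order of groups as Spp1. Whether reads of adjacent genes were shared was not tested.

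**Figure D4:**
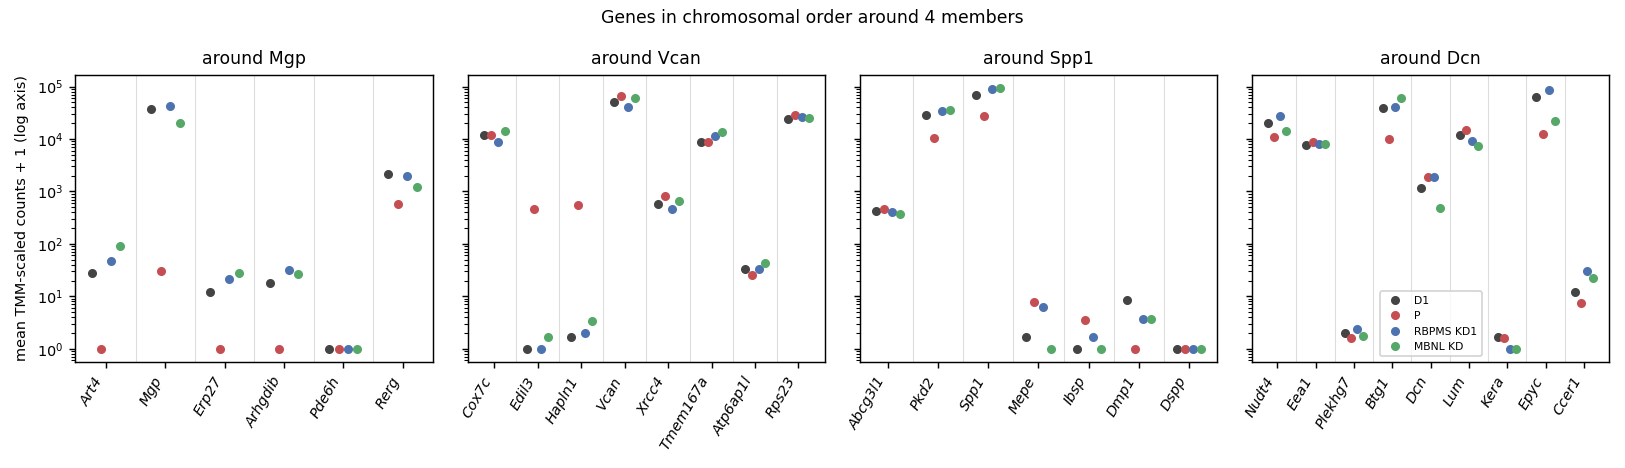
Mean TMM-scaled counts plus 1 (log axis) of protein-coding genes with counts, up to 4 places on either side of Mgp, Vcan, Spp1 and Dcn in chromosomal order (no distances), coloured by group. Art4, Erp27 and Arhgdib were at 0 in P, and Pkd2 followed the group order of Spp1.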

How the data were processed

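The authors prepared poly(A) libraries with a directional kit, subsampled the reads of each library, aligned them with STAR 2.7.11b to the rat genome mRatBN7.2 and ran featureCounts at the level of genes. The deposited count table holds these raw counts for 12 libraries, and columns left unmatched to a sample numbered 0. A second deposited table holds the normalised signal of the same genes after noise filtering with noisyR and quantile normalization by the authors, and was used only as an alternative. Even counts outnumbered odd counts 2.06 to 2.36 times among low counts, and the counts per library exceed the number of reads to which the methods say libraries were subsampled. The mates of a read pair may therefore have been counted apart, so that a fragment counts 2 times, which was not settled. Printed counts and the floor of 3 counts would then stand for fewer fragments, and the counts were also halved as an alternative. Groups came from the sample labels.

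Counts were fitted with edgeR 4.0.16 (R 4.3.3): TMM scaling, filterByExpr, the quasi-likelihood F test on the 6 libraries of a comparison and Benjamini-Hochberg adjustment over all genes tested. The SE was derived from F (absolute log2 fold change over the root of F), and intervals are 95%. The fits were tested on simulated data. Alternatives were DESeq2 1.42.0, limma 3.58.1 on the normalised signal, other scalings and filters, no fold threshold, a replicate block, a single fit of 12 libraries and leaving out each library. Scaled counts are not corrected for gene length, so levels were not compared between genes as transcripts.

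The 10 genes and the lists were chosen with earlier results of these data known. All 10 genes were named in every comparison, together with the targeted genes; of each list and comparison, up to 6 called genes with the largest change whose libraries did not overlap and whose higher group had a mean of at least 100 scaled counts; and the 3 genes nearest in pattern to each of the 9 that passed the filter (not Alpl). Some genes that this rule names are not reported here. Genes near the 10 on the chromosome were named after their values were seen. Promoter and gene-order tables came from RefSeq (GRCr8), and coordinates are of that build only.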

Additional observations from a re-analysis of the deposited data

How the results depend on the processing

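Each log2 fold change was classed as not passing, passing on the adjusted p alone, or called. Of 540 log2 fold changes of the 9 tested genes (Alpl excluded) under the alternatives, 525 kept their direction and class. Of the others, 7 fell in class, 3 rose and 5 changed sign. The 7 falls were between the knockdowns: Spp1 no longer passed the adjusted p, and Acan and Mgp the 2-fold threshold. The 3 rises were of Acan in RBPMS KD1, from not passing to passing on the adjusted p alone. Without the fold threshold 9, 7, 8 and 9 of the genes passed in P, RBPMS KD1, MBNL KD and MBNL KD against RBPMS KD1, in place of 5, 0, 2 and 4, and 70, 54, 60 and 60 list genes in place of 39, 3, 13 and 14. List genes tested were 77 in P and 74 in each other comparison. Of all genes, 40.4% passed as higher and 37.6% as lower in P, and 29.5% and 29.5% in RBPMS KD1. These shares were 33.8% and 33.7% in MBNL KD, and 35.1% and 34.5% between the knockdowns. The sign changes were those of Sox9 in RBPMS KD1 (quantile normalization -0.0074; leaving out 1 library -0.080 to 0.16) and Bgn in MBNL KD (limma -0.073; leaving out 1 library -0.0066 to 0.020), both near 0 in the reported fit; the cause was not tested. Quantile normalization moved the split of calls over all genes: in P 2277 higher and 2540 lower (47.3% higher) in place of 2758 and 1883 (59.4%), and in RBPMS KD1 380 and 337 (53.0%) in place of 487 and 258 (65.4%). It shifted the median gene by at most 0.093 on the log2 scale. Same-numbered libraries did not deviate together (correlations -0.023 to 0.019), and a fit with a replicate block called 5, 0, 2 and 4 of the 10 genes and changed no other call. Depth limited Alpl most, with 0 to 18 counts per library, and it entered the counts of genes called higher under DESeq2 and without the filter.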

Other observations

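The genes whose pattern over the 12 libraries was nearest to each of the 9 tested genes were found among 17429 genes by the root mean square difference of centred log2 CPM, with a prior count of 2. Nothing on shared function or control follows from it. For Spp1 they were Cpq (0.060), its chromosomal neighbour Pkd2 (0.072) and Dhtkd1 (0.082). For Acan they were Clic6, a chloride channel family gene (0.34), Tent5d (0.37) and LOC102546535 (0.37). The nearest to Mgp was Fam78b (0.26), followed at a distance by Actg2, the smooth muscle gamma actin gene (0.77). For Sox9 they were LOC102554553 (0.10), Shc3 (0.14) and Mthfd1l (0.14), and for Runx2 LOC120099967 (0.22), Fbln2, a fibulin (0.23), and Rasgrp2 (0.25). The nearest genes were Laptm4b, Gstm2 and RGD1563072 for Bgn (0.053 to 0.057), Erlin2, Lhpp and Grn for Dcn (0.11 to 0.15), Ogdh, Fasn and Fbxl20 for Lum (0.060 to 0.066), and Rspry1, LOC120101889 and Eif2s1 for Vcan (0.047 to 0.048). The points share libraries and depth, and no test was made.

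Next to each of Runx2, Sox9 and Acan lies a gene that also differed between P and D1, picked after the values were seen. Over all genes, 16.4% were called higher and 11.2% lower in P. Clic5, next to Runx2, had 2 to 4 counts per library in D1 and 1087 to 1157 scaled counts in P. Kcnj2, an inward rectifier potassium channel gene next to Sox9, had 8.17 to 14.3 scaled counts in D1 and 584 to 696 in P. Hapln3, a link protein gene next to Acan, went the other way, with 461 to 552 scaled counts in D1 and 133 to 168 in P, where Acan was 466-fold higher. On the other side of Sox9, Slc39a11 had 2507 to 2806 scaled counts in D1 and 5141 to 5233 in P. On the other side of Acan, Isg20 had 1773 to 1819 in D1 and 885 to 929 in P.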
